A study of Homo sapiens with 4 samples.

Results

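The 9 genes described here encode the 6 human peroxiredoxins (PRDX1 to PRDX6), cytosolic thioredoxin (TXN), mitochondrial thioredoxin (TXN2) and sulfiredoxin (SRXN1). They were taken by gene symbol from the 19739 rows of the coding table, and all 9 had a row and were at 1 FPKM or more in every library. FPKM is the number of fragments per kilobase of transcript and per 1000000 fragments, so levels of different genes can be set side by side. The study compared HepG2 and Huh7, both labelled as human hepatocellular carcinoma lines, without treatment and 24 h into exposure to RSL3@O2-ICG NBS combined with ultrasound of low frequency. RSL3 inhibits GPX4, a selenoenzyme that clears peroxides of membrane lipids, and ICG is the usual short form of the dye indocyanine green. Each of the 4 groups held 1 library, so a ratio within a line has no replicate and no test. The 4 libraries include none given ultrasound, the carrier or RSL3 alone, so the parts of the treatment cannot be told apart. Values given in pairs below are for the untreated library and then the treated one; where a second pair follows, it is Huh7.

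Peroxiredoxins reduce hydrogen peroxide, organic hydroperoxides and peroxynitrite with a reactive cysteine. In the typical 2-Cys forms, PRDX1, PRDX2, PRDX3 and PRDX4, the oxidised cysteine forms a disulphide with the partner subunit. In PRDX1, PRDX2 and PRDX3 this disulphide is reduced by thioredoxin. Thioredoxin is in turn reduced by thioredoxin reductase with electrons from NADPH. In a typical 2-Cys form, a cysteine oxidised further, to the sulphinic acid, is inactive until sulfiredoxin repairs it with ATP. PRDX6 is a 1-Cys form that draws on glutathione and also reduces phospholipid hydroperoxides, the kind of lipid peroxide that GPX4 reduces.

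Inferred depth was 22900000 to 26400000 fragments per library. The libraries labelled HepG2 lacked the transcripts that define hepatocytes: 0 of 11 markers reached 1 FPKM in either, with summed levels of 0.528 and 0.435 FPKM, and ALB, TTR, FOXA2, FGA and FGB were listed at 0 in both. In Huh7 11 of 11 reached 1 FPKM, with sums of 1857 and 1431 FPKM. Every statement on HepG2 below is therefore about libraries so labelled. Summed epithelial markers measured 1165 and 1095 FPKM in HepG2-labelled cells and 4080 and 1871 FPKM in Huh7. In HepG2-labelled cells nearly all of the sum was KRT8 (890 and 749 FPKM) and KRT18 (273 and 344 FPKM). CDH1 (0.27 and 0.009 FPKM) and EPCAM (0.91 and 1.37 FPKM) were low there. In Huh7 CDH1 measured 26.1 and 16.8 FPKM and EPCAM 46.5 and 42.6 FPKM. The part of cell makeup in the ratios below was not tested. In bulk RNA, fewer cells of a type and less RNA per cell cannot be told apart.

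Upstream sequence is printed for genes picked by their ratios. PRDX3 and PRDX4 stood lower after treatment in both lines, while SRXN1 and the reductase gene TXNRD1 were each 2.06-fold higher in treated Huh7. The stretches below hold 250 bases before and 10 after the RefSeq start site, 5′ to 3′ on the gene's strand. Capitals mark the antioxidant response element core TGACNNNGC, the E-box CACGTG or the CCAAT box, on either strand.
PRDX3 (GRCh38.p14, chr10:119178803-119179062, minus strand): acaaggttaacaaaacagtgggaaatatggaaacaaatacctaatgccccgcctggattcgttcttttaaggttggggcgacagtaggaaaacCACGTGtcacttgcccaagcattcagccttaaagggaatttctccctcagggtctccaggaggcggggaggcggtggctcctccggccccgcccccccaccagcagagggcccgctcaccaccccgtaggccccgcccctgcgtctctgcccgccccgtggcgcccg
PRDX4 (GRCh38.p14, chrX:23667243-23667502, plus strand): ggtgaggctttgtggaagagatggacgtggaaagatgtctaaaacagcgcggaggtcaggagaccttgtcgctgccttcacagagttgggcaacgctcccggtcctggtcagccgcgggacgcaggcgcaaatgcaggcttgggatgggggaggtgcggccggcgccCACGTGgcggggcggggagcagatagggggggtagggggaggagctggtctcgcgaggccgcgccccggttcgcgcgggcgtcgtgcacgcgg
SRXN1 (GRCh38.p14, chr20:653191-653450, minus strand): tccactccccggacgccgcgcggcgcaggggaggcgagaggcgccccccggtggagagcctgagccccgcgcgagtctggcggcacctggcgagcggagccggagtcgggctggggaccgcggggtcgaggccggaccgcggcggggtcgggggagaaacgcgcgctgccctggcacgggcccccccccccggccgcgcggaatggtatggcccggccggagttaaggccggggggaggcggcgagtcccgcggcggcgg
TXNRD1 (GRCh38.p14, chr12:104215529-104215788, plus strand): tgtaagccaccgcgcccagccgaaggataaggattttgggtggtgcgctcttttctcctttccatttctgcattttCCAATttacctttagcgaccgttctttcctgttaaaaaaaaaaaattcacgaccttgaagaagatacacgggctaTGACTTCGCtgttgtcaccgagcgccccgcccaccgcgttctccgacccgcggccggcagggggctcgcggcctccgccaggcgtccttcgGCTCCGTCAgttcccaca
The SRXN1 and PRDX4 start sites lie inside the gene spans of the deposited table.

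RefSeq windows of 300 bases, with 50 after the start, were matched for 6 of the 9 genes (PRDX2, PRDX3, PRDX4, PRDX5, TXN and SRXN1). Motif letters were searched on both strands. The antioxidant response element core, the sequence that NRF2 with a small MAF protein binds, was in 13.3% of 35116 RefSeq windows of this length and in none of those 6 genes' windows. The first TXNRD1 window held it at -99 and, on the other strand, at -8, and a second window held it at -102. E-boxes, present in 7.26% of windows, were at -157 of PRDX3 and -83 of PRDX4. The window of PRDX2, which was also lower after treatment in both lines, held none. PRDX1, lower in both lines as well, and TXN2 had no matched window. The TATA box TATAAA, in 11.5% of windows, was at -30 of TXN, with an overlapping match on the other strand at -32. The CCAAT box (34.6% of windows) was in none of the 6 and in both windows of TXNRD1. The amino acid response element TGATGNAA (3.62% of windows) was in none of these. G and C made up 80.0% of the SRXN1 window, against a median of 58.7% over all windows. These matches are letters in a window and were not tested as sites.

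In all 4 libraries PRDX1 was the highest of the 9 transcripts and TXN2 the lowest. PRDX1, the main cytosolic peroxiredoxin (ENSG00000117450, chromosome 1, 45511036 to 45523047), was the 18th most abundant coding transcript in both libraries of HepG2-labelled cells. It ranked 22 in untreated and 28 in treated Huh7. Its level in untreated HepG2-labelled cells was 3.39 times that of TXN, the next of the genes, and in untreated Huh7 3.74 times that of PRDX2. The 6 peroxiredoxins summed to 2508 and 2134 FPKM in HepG2-labelled cells, and to 2502 and 2100.45 FPKM in Huh7. PRDX1 alone made up 53.4%, 49.9%, 52.8% and 53.1% of these sums.

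Below PRDX1, TXN stood next in 3 of the libraries and PRDX2 in untreated Huh7. The next ranks were held in varying order by TXN, PRDX2, PRDX4, PRDX6, PRDX5 and PRDX3, followed by SRXN1 and TXN2 in each library. Neighbours in this order were apart by more than counting error, except PRDX6 (186 FPKM) and PRDX5 (184 FPKM) in treated Huh7. Counting error was computed from fragments inferred for each gene (95% intervals) and leaves out differences between cultures and libraries.

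**Figure D1:**
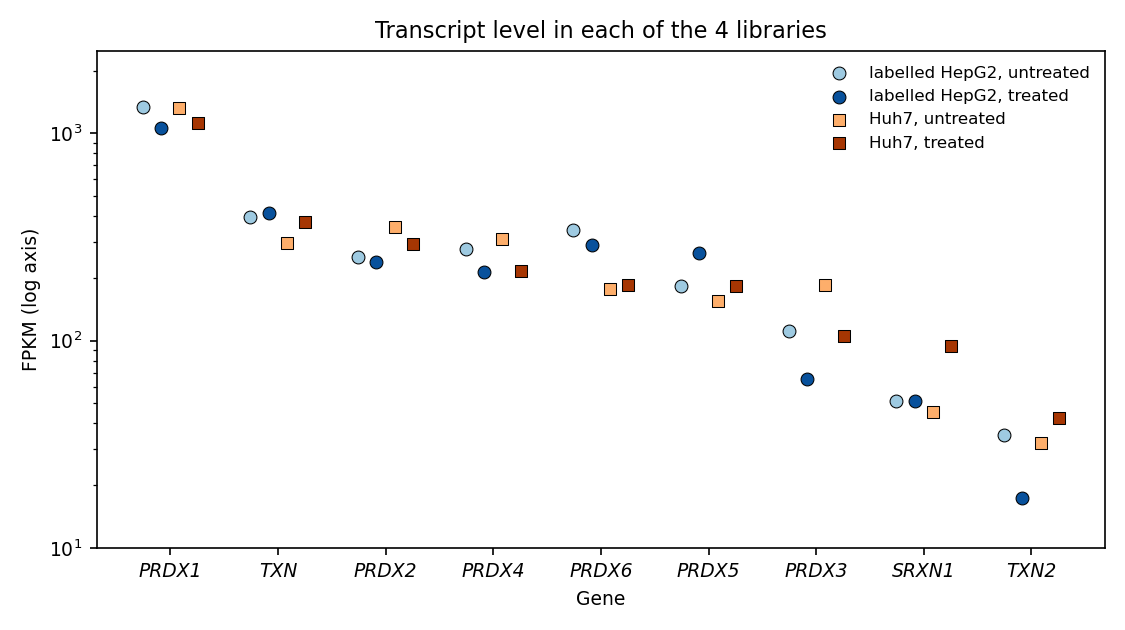
FPKM of the 9 genes (log axis) in each of the 4 libraries, ordered by mean level, with 1 point for each library. PRDX1 stands at 1064 FPKM or higher in every library, and TXN2 stands lowest in each, from 17.4 to 42.4 FPKM.

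Between the untreated lines none of these transcripts differed by 2-fold on the deposited scale, and PRDX6 did once each library was rescaled to the same FPKM sum. In untreated Huh7 against untreated HepG2-labelled cells, 0 of 9 genes were at least 2-fold higher, where 17.5% of 12446 genes were, and 0 of 9 at least 2-fold lower, where 17.2% were. PRDX6 came closest, at 343 FPKM in untreated HepG2-labelled cells and 177 FPKM in untreated Huh7 (1.93-fold lower in Huh7, log2 ratio -0.95). After the rescaling by sum its log2 ratio was -1.02, so that 1 of 9 was then at least 2-fold lower. PRDX3 differed most the other way, at 112 and 185 FPKM (1.65-fold higher in Huh7). PRDX1 measured 1339 and 1322 FPKM. Of the reductases, TXNRD1 was 6.74-fold lower, TXNRD2 5.82-fold lower and TXNRD3 1.58-fold lower in untreated Huh7. These are single libraries, and a difference between lines cannot be told apart from one between cultures.

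After treatment 0 of the 9 genes were at least 2-fold higher in the HepG2-labelled libraries, against 6.7% of 11843 genes, and 0 at least 2-fold lower, against 2.43%. In Huh7, SRXN1 alone was at least 2-fold higher (1 of 9, against 3.88% of 11945 genes), and 0 were at least 2-fold lower, against 2.19%. Ratios are of FPKM + 1, which understates the change of low genes. At 1.5-fold the lower genes were PRDX3 and TXN2 in HepG2-labelled cells (2 of 9, against 8.76%) and PRDX3 in Huh7 (1 of 9, against 7.63%). At 1.5-fold 0 were higher in HepG2-labelled cells (background 19.2%) and SRXN1 was higher in Huh7 (background 15.4%). A single gene of 9 is 11.1%, so a count of 0, 1 or 2 is read here only as a description. The median log2 ratio of the 9 was -0.25 in HepG2-labelled cells and 0.07 in Huh7, where all measured genes had medians of 0.09 and 0.10. Median-of-ratios size factors moved those all-gene medians to -0.02 and -0.03. Each gene is therefore also placed below by the share of all genes with a lower or higher ratio.

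**Figure D2:**
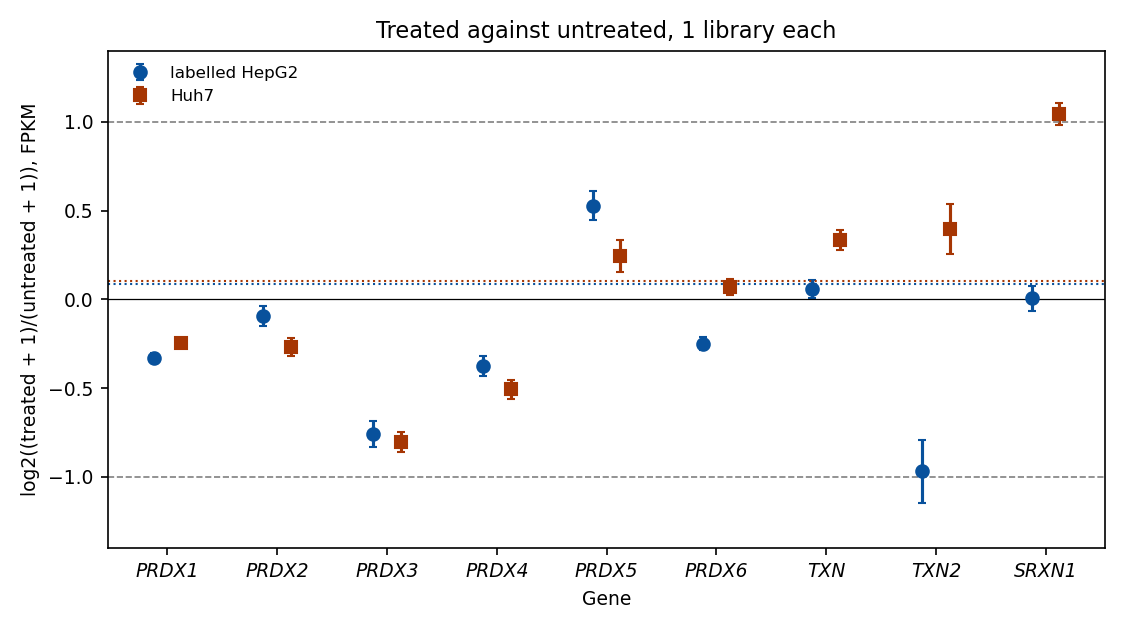
Log2 ratio of treated to untreated FPKM + 1 for each gene, circles for HepG2-labelled cells and squares for Huh7, with bars for 95% counting error of 1 library against 1. Dashed lines mark 2-fold and dotted lines the median of all measured genes; SRXN1 in Huh7 lies above the upper dashed line and TXN2 in HepG2-labelled cells just inside the lower one.

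The typical 2-Cys peroxiredoxins had lower levels after treatment in both lines, under the deposited scale and both rescalings. They were 4 of the 9 genes (44.4%), while 3 were higher in both lines and 2 had opposite signs as deposited. Over 10758 genes measured in both lines, 23.3% were lower in both and 38.5% higher in both. PRDX3, the mitochondrial form (ENSG00000165672, chromosome 10, 119167720 to 119178812), measured 112 and 65.5 FPKM in HepG2-labelled cells. In Huh7 it measured 185 and 106 FPKM. The treated level was the lower one in each line, by 1.69-fold (log2 ratio -0.76, counting interval -0.83 to -0.69) and 1.74-fold (-0.80, -0.86 to -0.75). In HepG2-labelled cells 5.3% of genes had a lower ratio, and in Huh7 3.8%. PRDX3 was the 1 gene of the 9 lower by 1.5-fold or more in both lines, which held for 205 of the 10758 genes (1.91%).

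PRDX4, the form of the endoplasmic reticulum (ENSG00000123131, chromosome X, 23664262 to 23686397), measured 277 and 213 FPKM in HepG2-labelled cells and 308 and 217 FPKM in Huh7. Its treated levels were thus alike in the lines and lower than the untreated ones, by 1.297-fold and 1.42-fold. PRDX1 measured 1339 and 1064 FPKM, then 1322 and 1114 FPKM, 1.26-fold and 1.19-fold lower after treatment. PRDX2, the second cytosolic form, abundant in red blood cells (ENSG00000167815, chromosome 19, 12796820 to 12801800), measured 254 and 238 FPKM, then 354 and 294 FPKM. The PRDX2 ratio was the smallest of the 4 in HepG2-labelled cells (1.07-fold lower). The 4 typical 2-Cys genes summed to 1982 and 1581 FPKM in HepG2-labelled cells and to 2169 and 1730.46 FPKM in Huh7.

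The remaining peroxiredoxins had other patterns. PRDX5, an atypical 2-Cys form found in mitochondria, peroxisomes and cytosol (ENSG00000126432, chromosome 11, 64318121 to 64321811), measured 183 and 264 FPKM in HepG2-labelled cells. In Huh7 it measured 156 and 184 FPKM. It was the 1 peroxiredoxin with higher treated levels in both lines under every scaling, by 1.44-fold and 1.18-fold as deposited, and 21.8% and 38.4% of genes had a higher ratio. PRDX6 (ENSG00000117592, chromosome 1, 173477330 to 173488815) measured 343 and 288 FPKM in HepG2-labelled cells, 1.19-fold lower after treatment. In Huh7 it measured 177 and 186 FPKM, a log2 ratio of 0.07 that became -0.08 with size factors.

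TXN and TXN2 had unlike ratios in HepG2-labelled cells, and both were higher after treatment in Huh7. TXN (ENSG00000136810, chromosome 9, 110243810 to 110256507), the cytosolic protein that reduces PRDX1 and PRDX2, measured 395 and 411 FPKM in HepG2-labelled cells. Its log2 ratio there, 0.06, became -0.06 with size factors. In Huh7 TXN measured 295 and 372 FPKM, 1.26-fold higher after treatment as deposited and higher under each scaling. TXN2 (ENSG00000100348, chromosome 22, 36467046 to 36481640), the mitochondrial partner of PRDX3, measured 35.0 and 17.4 FPKM in HepG2-labelled cells and 31.9 and 42.4 FPKM in Huh7. Its treated level was the lower one in HepG2-labelled cells (log2 ratio -0.97, counting interval -1.15 to -0.79), and the higher one in Huh7, by 1.32-fold (0.40, 0.26 to 0.54). TXN2 had a lower ratio than 97.3% of genes in HepG2-labelled cells and a higher one than 73.2% in Huh7. The TXN2 log2 ratios differed by 1.37 between the lines, a difference with no replicate and no test. Of 10758 genes measured in both lines, 38.2% had opposite signs. TXN2 in HepG2-labelled cells is also the call nearest the 2-fold line: it passes with a pseudocount of 0.1 or with size factors.

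SRXN1, sulfiredoxin (ENSG00000271303, chromosome 20, 646615 to 653370), measured 51.0 and 51.2 FPKM in HepG2-labelled cells, and 45.1 and 94.1 FPKM in Huh7. The treated Huh7 library is the high one, and the other 3 lie close together. The ratio in Huh7 was 2.06-fold (log2 ratio 1.04, counting interval 0.98 to 1.11), higher than that of 96.7% of genes. With size factors its log2 ratio was 0.90, short of 2-fold. In HepG2-labelled cells the log2 ratio was 0.01, with a counting interval from -0.06 to 0.07, and its sign changed to -0.11 with size factors. SRXN1 shares 85.0% of its exonic bases with AL121758.1, a coding gene annotated on the same strand, which was listed at 0 in all 4 libraries, so how the counting split the reads is uncertain.

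The only test across libraries was a limma fit of treatment with cell line as a block, over 13030 genes, with 1 residual degree of freedom. It asks whether both lines moved alike. It called 0 genes (0%) at an adjusted p of 0.05 (1534 had an unadjusted p under it), and 0 of the 9 genes. Unadjusted, 2 of the 9 were under that threshold, PRDX3 (limma adjusted p = 0.259) and PRDX4 (limma adjusted p = 0.412). Both were lower in 2 of 2 lines, with mean log2 ratios of -0.78 ± 0.196 (SE) and -0.44 ± 0.183. Over the alternatives of this fit the adjusted p of PRDX3 ranged from 0.233 to 1. For SRXN1 the mean log2 ratio was 0.53 ± 0.281 (limma adjusted p = 0.496), and for TXN2 it was -0.29 ± 0.332 (limma adjusted p = 0.752).

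**Figure D3:**
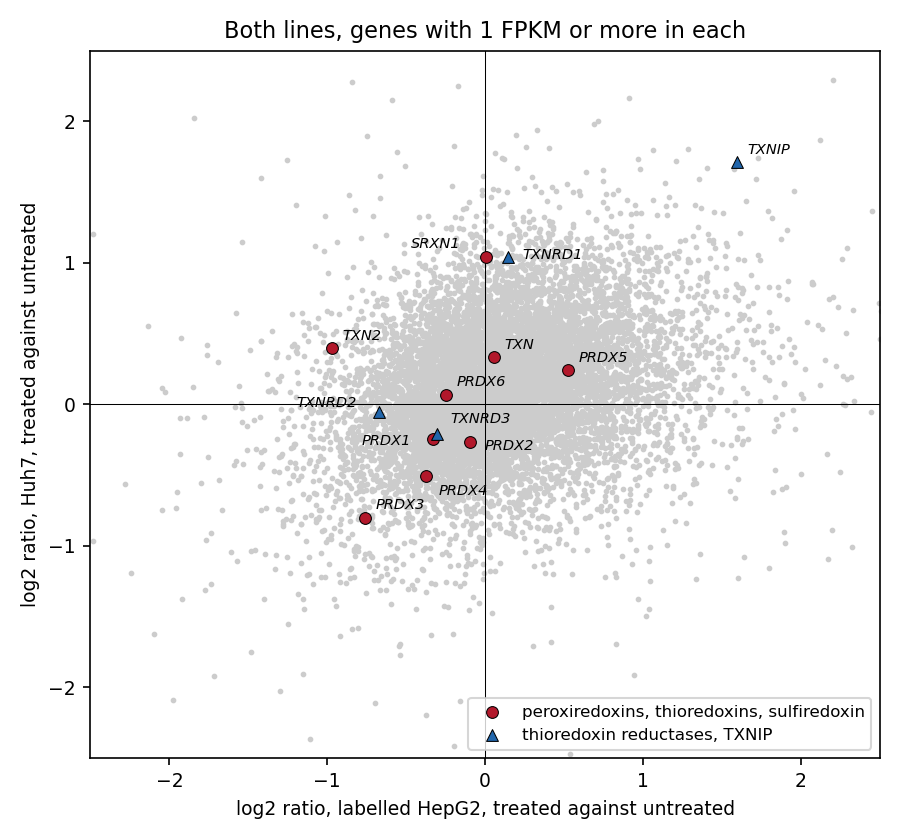
Log2 ratio of treated to untreated in HepG2-labelled cells (x axis) and Huh7 (y axis), with grey points for genes at 1 FPKM or more in each line, circles for the 9 genes and triangles for the reductases and TXNIP. PRDX1, PRDX2, PRDX3 and PRDX4 lie at lower left, TXN2 at upper left, and SRXN1 and TXNRD1 lie near 1 on the Huh7 axis and near 0 on the other; genes beyond 2.5 on either axis are not drawn.

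The reductases that keep thioredoxins reduced, and the thioredoxin inhibitor TXNIP, gave 4 further values a line. TXNRD1, the cytosolic reductase, measured 259 and 286 FPKM in HepG2-labelled cells and 37.5 and 78.4 FPKM in Huh7. Like SRXN1 it was near its untreated level in HepG2-labelled cells (1.11-fold) and 2.06-fold higher in Huh7, and with size factors its log2 ratio in Huh7 was 0.90, short of 2-fold. TXNRD2, the mitochondrial reductase that serves TXN2, measured 68.7 and 42.8 FPKM in HepG2-labelled cells (1.59-fold lower) and 11.0 and 10.5 FPKM in Huh7. The 4 genes described above as coding for mitochondrial proteins were grouped after their values were seen. In HepG2-labelled cells TXNRD2, TXN2 and PRDX3 had log2 ratios of -0.67, -0.97 and -0.76. PRDX5 had 0.53 there, where 43.1% of all genes were below 0. In Huh7 only PRDX3 of these 4 was lower by 1.5-fold or more. The group leaves out other listed genes for mitochondrial proteins, so no shared decrease is read from it. In HepG2-labelled cells MSRB2 had a log2 ratio of 0.95, GLRX2 0.41, the SOD2 entries 0.29 and 0.13, and GLRX5 0.08. Those of SOD2 and GLRX5 were within counting error. In Huh7 GLRX2 had -0.59. TXNRD3 measured 5.87 and 4.58 FPKM, then 3.36 and 2.78 FPKM, within counting error in both lines. TXNIP, an arrestin-like protein that binds thioredoxin and responds to glucose, measured 5.41 and 18.4 FPKM in HepG2-labelled cells and 5.56 and 20.5 FPKM in Huh7. It was 3.02-fold and 3.27-fold higher after treatment (limma adjusted p = 0.174), while its partner TXN stayed within 1.26-fold in both.

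Long noncoding transcripts lay at the locus of 1 of the 9 genes. A transcript of AC018761.2, antisense to PRDX2 and overlapping 14.1% of its exonic bases, was listed at 0 in all 4 libraries. Inside the span of TXNRD1, a transcript of AC089983.1 (chromosome 12, 104262314 to 104280722) measured 3.04 and 27.97 FPKM in HepG2-labelled cells and was listed at 0 in both Huh7 libraries. MMACHC, on the strand opposite PRDX1 and overlapping 24.9% of its exonic bases, measured 4.33, 7.30, 3.77 and 5.08 FPKM, in the order untreated and treated HepG2, then Huh7. These levels are small beside those of PRDX1. Processed copies in the genome could also share reads. PRDX1P1 matches PRDX1 at 93.5% over 600 bases, PRDX3P1 matches PRDX3 at 92.9% over 771 bases, and TXN has 4 such copies. PRDX2P4 matches PRDX2 at 91.5% over 602 bases, and AC108073.1 matches PRDX6 at 93.5% over 675 bases. For TXN2 the match is AL359504.1, at 90.8% over 501 bases. PRDX4 and PRDX5 had none at 90% identity over 200 bases.

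The 7 lists of related genes, 69 rows in all, describe the wider pathway, among them the NRF2 regulators and targets, the thioredoxin-domain proteins and the glutaredoxins. In HepG2-labelled cells 6 of 57 measured were at least 2-fold higher (background 6.7%) and 2 lower (2.43%), and in Huh7 6 of 59 were higher (3.88%) and 2 lower (2.19%). The thioredoxin-domain proteins had median log2 ratios of -0.33 and -0.27, with 5 of 20 and 5 of 19 above 0, where 56.9% and 58.8% of all measured genes were. TXNL4A, a spliceosome protein with a thioredoxin fold, was lower in both lines, at 44.0 and 18.8 FPKM, then 29.03 and 10.9 FPKM. TXNDC5, a disulphide isomerase of the endoplasmic reticulum, measured 203 and 148 FPKM in HepG2-labelled cells and 204 and 25.4 FPKM in Huh7, 7.76-fold lower after treatment. It shares 60.6% of its exonic bases with the readthrough gene BLOC1S5-TXNDC5, so its value is uncertain.

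NRF2 is the transcription factor known for control of SRXN1, TXNRD1 and PRDX1. Of its 13 listed regulators and other targets, HMOX1, MAFF and MAFK were at least 2-fold higher in HepG2-labelled cells, and HMOX1, OSGIN1 and GCLC in Huh7. Their median log2 ratio was 0.22 and 0.50, with 10 of 13 above 0 in each line, where 56.9% and 58.8% of all measured genes were. NFE2L2, the gene of NRF2 itself, short of 2-fold and named after its values were seen, measured 35.0 and 19.0 FPKM, then 33.6 and 46.3 FPKM. MAFG, a small MAF gene named likewise, measured 11.6 and 20.0 FPKM, then 5.94 and 3.10 FPKM. Both thus had opposite signs in the lines, as did KEAP1, BACH1, MAFF and MAFK of the same list. The log2 ratios of BACH1 in HepG2-labelled cells (-0.01), and of KEAP1 (0.06) and MAFF (-0.14) in Huh7, were within counting error. Over 10758 genes measured in both lines, 38.2% had opposite signs. MAFF, a small MAF protein, measured 6.66 and 14.5 FPKM, then 13.6 and 12.2 FPKM. HMOX1, haem oxygenase, was higher in both, at 22.7 and 81.0 FPKM, then 21.0 and 55.6 FPKM. GCLC, the catalytic subunit of glutathione synthesis' first step, measured 19.4 and 22.8 FPKM, then 8.66 and 19.0 FPKM (2.07-fold in Huh7). OSGIN1 measured 10.2 and 15.1 FPKM, then 7.55 and 24.1 FPKM. ME1, SLC7A11, GCLM and NQO1, short of 2-fold and also named after their values were seen, were higher in both lines. Their log2 ratios in HepG2-labelled cells were 0.22, 0.11, 0.16 and 0.07, that of NQO1 within counting error. In Huh7 they were 0.98, 0.95, 0.60 and 0.50. PRDX1 had the lower level after treatment in both lines. The part of NRF2 in these values was not tested.

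Among peroxide enzymes and thioredoxin clients, GPX3, a secreted glutathione peroxidase, was 2.12-fold higher in treated Huh7 (21.8 and 47.3 FPKM). In HepG2-labelled cells GPX3 measured only 0.05 and 0.09 FPKM. GPX1, also on the list of peroxide enzymes, had no entry under that symbol, so it has no value here. GPX8, of the endoplasmic reticulum, was 2.79-fold lower in treated HepG2-labelled cells (18.2 and 5.89 FPKM). MSRB3, which reduces oxidised methionine, measured 1.82 and 7.60 FPKM in HepG2-labelled cells, and SESN2, a stress-induced sestrin, measured 4.43 and 28.6 FPKM (5.44-fold). SESN2 measured 8.95 and 8.57 FPKM in Huh7. The 5 glutaredoxin-list genes had none at 2-fold in either line, with medians of 0.14 and -0.30.

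**Figure D4:**
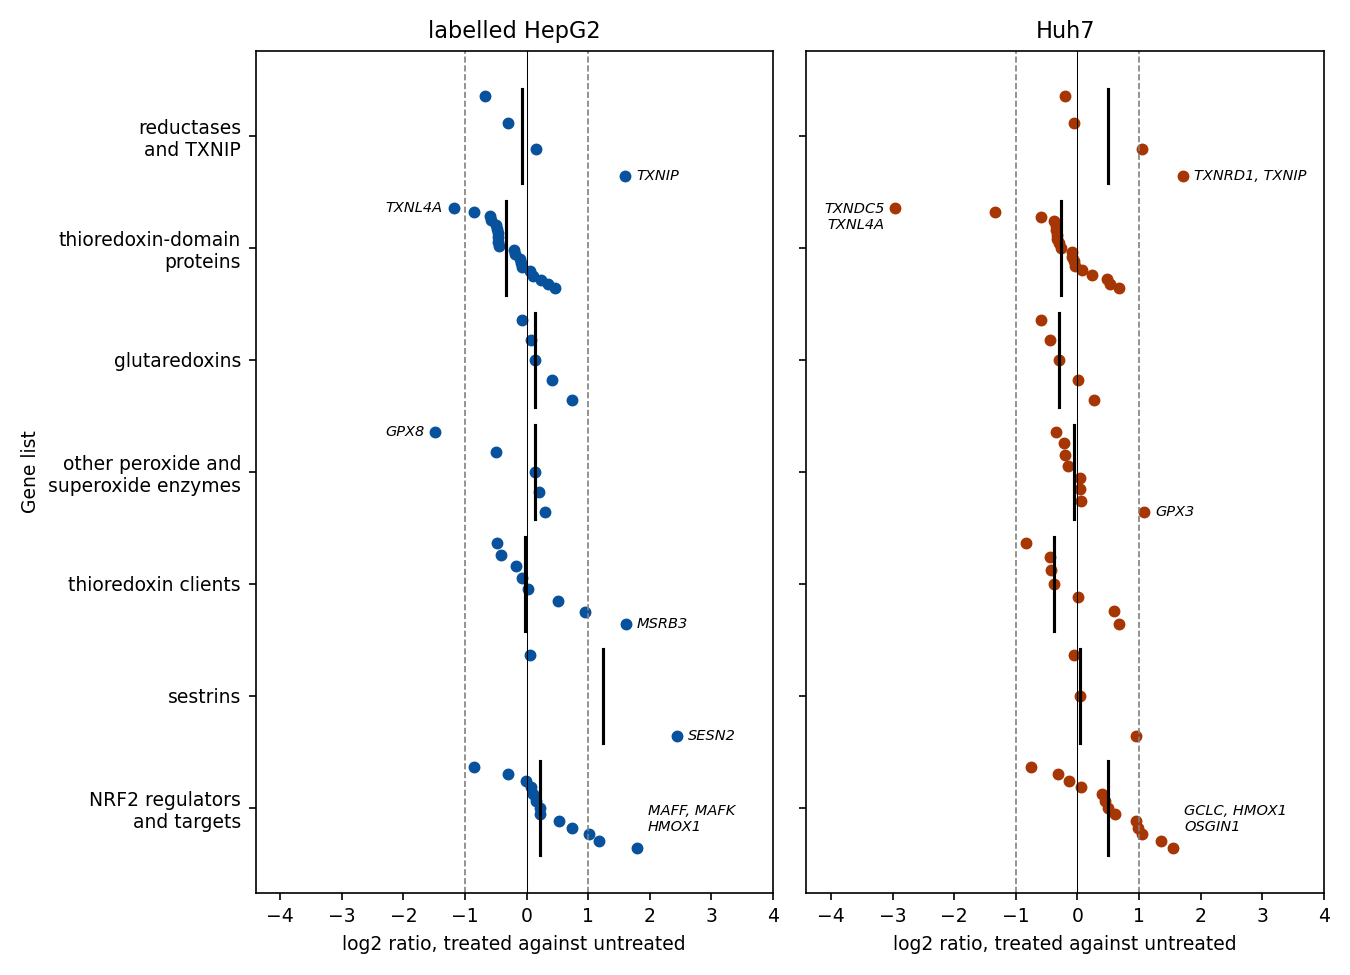
Log2 ratio of treated to untreated for each measured gene of the 7 lists, in HepG2-labelled cells and in Huh7, with bars for list medians and dashed lines at 2-fold. Genes at or past 2-fold are named beside the outermost point of their list in order of ratio; TXNIP, TXNL4A and HMOX1 are past 2-fold in both panels.

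Genes with the nearest profile over the 4 libraries were listed for 3 of the 9, by the distance between centred log2(FPKM + 1) values over 13030 genes. For SRXN1 they were ZNF484 (distance 0.0308), ABI2 (0.0583) and TRIQK (0.104), all under 7 FPKM. For PRDX1 they were EIF2B3 (0.0265), SPRTN (0.0396) and FAM185A (0.0413). For TXN they were LRBA (0.022), SETD1B (0.0416) and AP3M1 (0.0431).

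The authors' deposited table of Gene Ontology terms names 3213 genes for HepG2-labelled cells and 2438 for Huh7. Of the 9 genes, the authors' deposited table names TXN2 for HepG2-labelled cells (1 of 9, against 14.5% of its background of 22135 genes) and 0 for Huh7 (against 11%), and it names TXNIP for both. For the term cell redox homeostasis the authors' deposited table gives 13 of 68 genes, p = 0.182 and corrected p = 0.790, in HepG2-labelled cells. For Huh7 the authors' deposited table gives 4 of 68 genes with p = 0.951.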

How the data were processed

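RNA sequencing was done on 4 libraries, 1 per group; libraries were made from 1 µg of total RNA with an Illumina TruSeq kit, per the labels' protocols. The authors deposited FPKM per coding gene and per long noncoding transcript, per the file headers, and tables with a p-value per Gene Ontology term, per the file headers. Tools named without roles in the submitters' processing notes include StringTie 1.3.1, HISAT2 and Cuffdiff 2.1.1, besides Bowtie2 2.2.8. Build, annotation and use of strand were not given in the sources used here; positions of 99.84% of 19664 matched identifiers overlap GENCODE 29, so they are read as GRCh38.

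Members and lists were chosen with earlier results of these data known; 1 gene was taken out of the lists, counts and medians included, and is not reported here. All 9 members are named, with TXNRD1, TXNRD2, TXNRD3, TXNIP, any listed gene past 2-fold, and the 3 nearest profiles of SRXN1, PRDX1 and TXN. Ratios are log2((treated FPKM + 1)/(untreated FPKM + 1)), over genes with 1 FPKM or more in at least 1 library of the line. Depth (25700000, 23200000, 26400000 and 22900000 fragments) was inferred from the steps of low values; each gene's fragments then follow from its shortest coding transcript, the choice that gives the widest interval. Intervals cover counting error only. limma 3.58.1 (R 4.3.3) was fitted on log2(FPKM + 1) of all 4 libraries with a trend and cell line as a block, with Benjamini-Hochberg adjustment, and tested on simulated data. Copies were searched with BLAST 2.17.0. Alternatives were a pseudocount of 0.1, a minimum of 5 FPKM, no minimum, 1.5-fold, library rescaling by sum or size factors, and limma without block or trend. Lists of fibroblast, endothelial, blood cell and epithelial markers reached 1 FPKM for 2 of 7, 0 to 1 of 5, 1 to 3 of 7 and 2 to 4 of 4 genes.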

Additional observations from a re-analysis of the deposited data

Results flagged for a closer look

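TXN2 moved in opposite directions in the lines, beyond counting error and under each scaling. Opposite signs alone were common as deposited, in 38.2% of 10758 genes measured in both lines and in 2 of the 9 genes (22.2%). The share of all genes that meet the stricter rule was not computed. Its log2 ratio in Huh7 minus that in cells labelled HepG2 was 1.37, with 35.0 and 17.4 FPKM in cells labelled HepG2 and 31.9 and 42.4 FPKM in Huh7. MAFK, a small MAF partner of NRF2, did the reverse, with a difference of -1.48: it measured 14.7 and 34.4 FPKM in cells labelled HepG2 and 16.2 and 12.9 FPKM in Huh7. MAFK overlaps TMEM184A, on the opposite strand, over 18.1% of its exonic bases. TXN2 has a pseudogene, AL359504.1, alike at 90.8% over 501 bases, which could share reads. Neither difference was tested, since each group is 1 library. The rule was applied only to the 9 genes, the reductases, TXNIP and listed genes past 2-fold. Listed genes outside it also had opposite signs beyond counting error, among them TXNDC15, MAFG and NFE2L2. For TXNDC15 the log2 ratios were -0.86 in cells labelled HepG2 and 0.68 in Huh7, a difference of 1.54. Their signs under the rescalings were not computed.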

How the results depend on the processing

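The count of the 9 genes at least 2-fold lower in cells labelled HepG2 was 0, became 1 (TXN2) with a pseudocount of 0.1 and 1 with size factors, and was 2 at 1.5-fold. The count at least 2-fold higher in Huh7 was 1 and became 0 with size factors, where SRXN1 fell short. The count lower in Huh7 was 0 and became 1 at 1.5-fold. The count higher in cells labelled HepG2 was 0 in all alternatives run. Size factors also moved the background: 5.17% of genes were then higher and 3.23% lower in cells labelled HepG2, and 2.5% higher and 3.11% lower in Huh7. Of the listed pathway genes, 3 in place of 6 were then at least 2-fold higher in Huh7, with TXNRD1, GCLC and GPX3 short of it, as was MAFF in cells labelled HepG2. Signs changed with size factors for PRDX6 in Huh7 and for TXN and SRXN1 in cells labelled HepG2, and for no other treated against untreated ratio of a member; between the untreated lines PRDX1 went from -0.02 to 0.07. PRDX6, lower in untreated Huh7 by a log2 ratio of -0.95, passed 2-fold with rescaling by sum (-1.02). limma called 0 genes, and 1 with a minimum of 5 FPKM: FTL, a ferritin gene, named after its value was seen (adjusted p = 0.0326). Without the cell line block limma called 0 genes, with 112 at an unadjusted p under 0.05; no member was called in any fit. No replicate could be left out, since each group held 1 library, and what repeat cultures would add was not measured.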
